A study of Eublepharis macularius with 18 samples.

Results

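The TGF-beta and BMP signalling families were followed in the injured heart of the leopard gecko (Eublepharis macularius). Members were chosen by name: all genes whose symbol begins with Tgfb, Bmp, Acvr or Inhb, or with Smad, Gdf or Ltbp and a number. The rule took 47 of the 12376 genes in the deposited table. They were 19 ligands, 12 receptors, 7 Smads, 4 latent TGF-beta binding proteins and 5 other genes that match by name. These 5 were Bmp1, Bmper, Bmp2k, Tgfbi and Tgfbrap1. The study applied a liquid nitrogen-cooled probe to the ventricle through an opened pericardium and sequenced poly-A RNA from ventricle next to the injury. There were 3 animals in each of 6 groups: controls, sham-operated animals, and animals at 3, 14, 30 and 100 days post injury (dpi). When the sham animals were sampled is not labelled, nor are strain, sex and age. RNA was extracted from each animal separately, so the 3 replicates of a group are separate animals.

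TGF-beta, activin and BMP ligands bind pairs of type I and type II receptor kinases at the cell surface, which then phosphorylate receptor Smads in the cytoplasm. TGF-beta and activin receptors act mainly on Smad2 and Smad3, and BMP receptors on Smad1 and Smad5, each with the shared partner Smad4, while Smad6 and Smad7 inhibit the pathway. TGF-beta is secreted in a latent form that is tethered to the matrix by latent TGF-beta binding proteins. In mammalian and fish hearts the pathway is known for its part in scar formation, endothelial growth and the wall of the ventricle.

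Symbols follow the mouse annotation that the authors transferred to their assembled transcripts, and all 47 also match a gene symbol in the RefSeq gene table of the gecko. That table holds 53 genes that fit the rule, and TGFB1, SMAD9, GDF1, GDF7, GDF15 and TGFB1I1 were not analysed here. In the RefSeq gene order, 5 pairs with a member on each side were next neighbours, among them SMAD3 with SMAD6, ACVRL1 with ACVR1B, and TGFBI with SMAD5. Sequencing depth ranged from 12646411 to 34898541 recovered reads per library, so that 3 reads, the floor used here, corresponded to 1.45 to 3.95 normalized counts. Of 12 listed cardiomyocyte markers, 9 were measured, with a summed level of 11962 to 22804 FPKM (a fragment level scaled by transcript length and library total) over the 18 libraries. The ventricular light chain Myl2 was listed at 0 in all 18 libraries, whereas the ventricular factor Irx4 was present in each. The ventricular list (Myl2, Irx4 and Hey2) summed to 13.8 to 36.1 FPKM over the libraries. The measured atrial markers (Myl7, Nr2f1 and Nr2f2) summed to 4213 to 7511 FPKM. Whether atrial tissue entered the libraries was not tested. In such bulk tissue, fewer cells of a type and less RNA per cell cannot be told apart.

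Of the 47 members, 37 had a mean of at least 10 normalized counts and were tested with the other genes (9887 in all) in a single limma model. A gene was called at an adjusted p under 0.05. The 10 members below the minimum were the ligands Bmp3, Bmp7, Bmp8a, Bmp15, Gdf2, Gdf5, Gdf9 and Gdf11 and the receptors Acvr1c and Acvr2b. In at least 1 of 12 comparisons 14 of the 37 members were called, where 28.9% of all tested genes were, comprising 4 of 11 tested ligands, 6 of 10 receptors, 2 of 7 Smads and 2 of 4 latent binding proteins. None of the 5 other genes that match by name was called in this model.

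**Figure D1:**
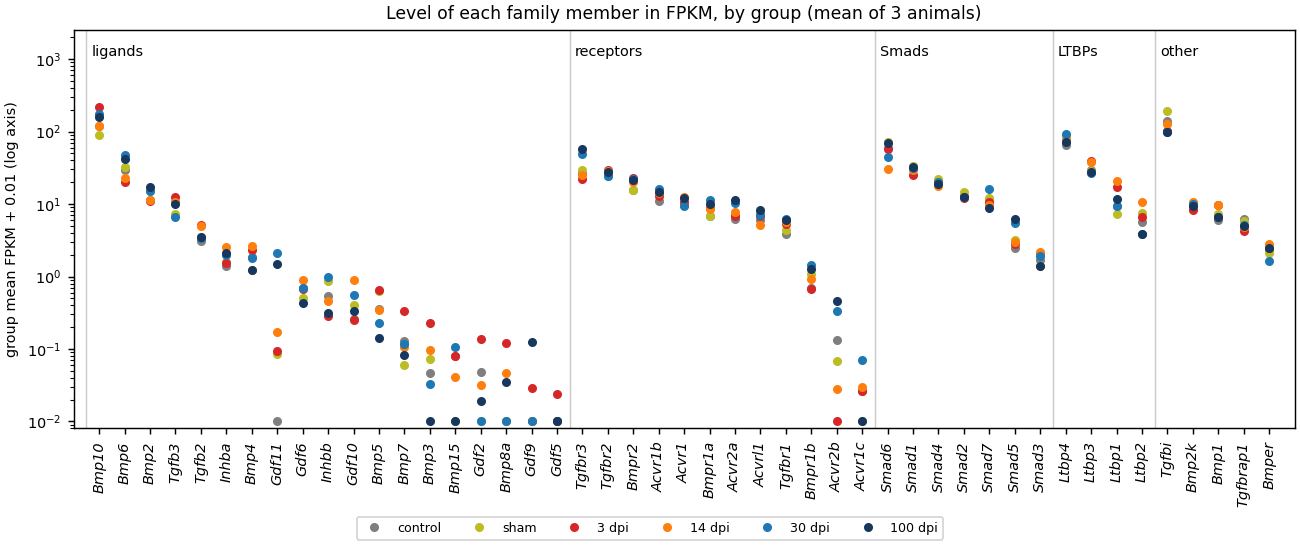
Group mean FPKM plus 0.01 on a log axis for all 47 members, ordered by role and level; each point is the mean of 3 animals. Bmp10 lay highest among the ligands in every group, Smad6 and Smad1 led the Smads, and most of the 10 untested members lay at the bottom of their roles, with Gdf11 higher up among the ligands and higher in 30 and 100 dpi means than in the other groups.

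Per transcript length, the ligand mRNA of the control ventricle was mostly Bmp10, a BMP that is needed for growth of the embryonic ventricle in mice. Whether atrial tissue added to its level was not tested. Bmp10 stood at 120 ± 30.4 FPKM (SD, n = 3), or 73.4% of the summed FPKM of 6 BMP ligands, ahead of Bmp6 at 29.6 ± 10.2 FPKM. The cushion-forming ligand Bmp2 stood at 11.4 ± 3.67 FPKM and Bmp4 at 1.88 ± 0.508 FPKM. Between the TGF-beta ligands analysed, Tgfb3 held 77.2% of the FPKM in controls and Tgfb2 the remainder. Inhba, which encodes the subunit of activin A, stood at 1.40 ± 0.483 FPKM and Inhbb at 0.525 ± 0.186 FPKM.

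Among the receptors of the control ventricle, the co-receptor Tgfbr3 (betaglycan) at 26.7 ± 3.91 FPKM and the TGF-beta type II receptor Tgfbr2 at 24.8 ± 3.33 FPKM were the highest. These levels differed by less than the SD of either. The BMP type II receptor Bmpr2 came next at 15.8 ± 1.32 FPKM. The tested type I receptors ranged from 0.681 ± 0.0993 for Bmpr1b to 11 ± 1.59 FPKM for Acvr1b, and the untested Acvr1c lay below them. The inhibitory Smad6 was the highest Smad at 59.6 ± 17.3 FPKM, above Smad1 at 32 ± 5.92 and the common partner Smad4 at 20.5 ± 3.07 FPKM. Smad3 was the lowest at 1.66 ± 0.238 FPKM. Ltbp4 held 59.0% of the FPKM of the 4 latent binding proteins.

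The first comparison asked whether the operation alone altered the families. Between sham and control animals no member was called by limma, and no gene of the 9887 (0%) was. At an unadjusted p under 0.05 there were 3 members, Acvrl1, Acvr1b and Tgfb3, against 479 of all genes (4.84%). edgeR's quasi-likelihood test and DESeq2 on the recovered reads called no member either, while DESeq2 called 29 genes (0.293%). Acvrl1, the endothelial type I receptor for BMP9 and BMP10, had 363, 362 and 369 normalized counts in the controls and 483, 474 and 483 in the sham animals, ranges that did not overlap. The 2 groups' ranges did not overlap in 11.8% of all tested genes.

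Against controls at 3 and 14 dpi, no member passed the limma threshold, in comparisons where 0.334% and 0.89% of all tested genes did. At an unadjusted p under 0.05 there were 9 of 37 members at 3 dpi and 14 at 14 dpi, beside 15.8% and 16.6% of all genes. edgeR called none in either comparison. DESeq2 called 3 at 3 dpi, higher Bmpr1a and Bmpr2 and lower Tgfbrap1, and 3 at 14 dpi, higher Bmpr1a and Inhba and lower Smad6, where it called 4.24% and 4.21% of all genes. Without 3 dpi replicate 2, limma called Bmpr2 higher at 3 dpi. The median log2 change of the 10 tested receptors was 0.21 at 3 dpi and 0.34 at 14 dpi, against 0.01 and 0.00 for all tested genes. Sham animals against controls already gave a receptor median of 0.17, with all 10 changes positive. Against sham animals the receptor median was 0.015 at 3 dpi and 0.096 at 14 dpi.

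Set against sham animals, where 0.971% of genes were called at 3 dpi and 0.738% at 14 dpi, no member was called by limma at either time. There were 15 and 12 of 37 members at an unadjusted p under 0.05, beside 19.2% and 12.8% of all genes. At 3 dpi edgeR called Bmp10 (1.04% of all genes) and DESeq2 called Bmp10, Ltbp1, Tgfb3, Bmpr1a and Bmpr2 (6.13% of all genes), all higher. At 14 dpi edgeR called none and DESeq2 called 3, Ltbp1 and Bmp4 higher and Smad6 lower, with 2.55% of all genes. Without 3 dpi replicate 2, limma called Bmp10 and Bmpr2 higher than in sham animals.

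Bmp10 had 6433, 4491 and 7579 normalized counts in the controls, 4353, 5305 and 4206 in the sham animals and 10627, 7469 and 16299 at 3 dpi. At 14 dpi the values were 5210.0, 4759.9 and 8365, at 30 dpi 10985, 10573 and 5868 and at 100 dpi 7823, 8016 and 8337. All 3 animals at 3 dpi lay above the sham animals, as did all at 30 and 100 dpi. For this and the separations of groups below, a share of all tested genes is given only for late against early animals. Between sham and control animals, where no gene was called, ranges did not overlap in 11.8% of all tested genes. The highest animal of any group was 3 dpi replicate 3. At 30 dpi DESeq2 called Bmp10 higher than in sham animals (adjusted p = 0.0117, 10.6% of all genes). Without 30 dpi replicate 3, limma did so too (adjusted p = 0.0248, 4.66% of all genes). At 100 dpi a fit of the compared groups alone called it higher than in sham animals (limma adjusted p = 0.0150, 5.27% of all genes). The 3 dpi mean was 2.37 times the sham mean on the log2(normalized count + 1) scale, which is used for all fold changes here (log2 change 1.25 ± 0.292 SE, limma adjusted p = 0.0544). Bmp10 was called by limma's F test over the 6 groups (adjusted p = 0.0476), a test that called 10 members and 16.2% of all genes. Its share of the BMP ligand FPKM was 85.2% at 3 dpi and 63.7% in sham animals.

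**Figure D2:**
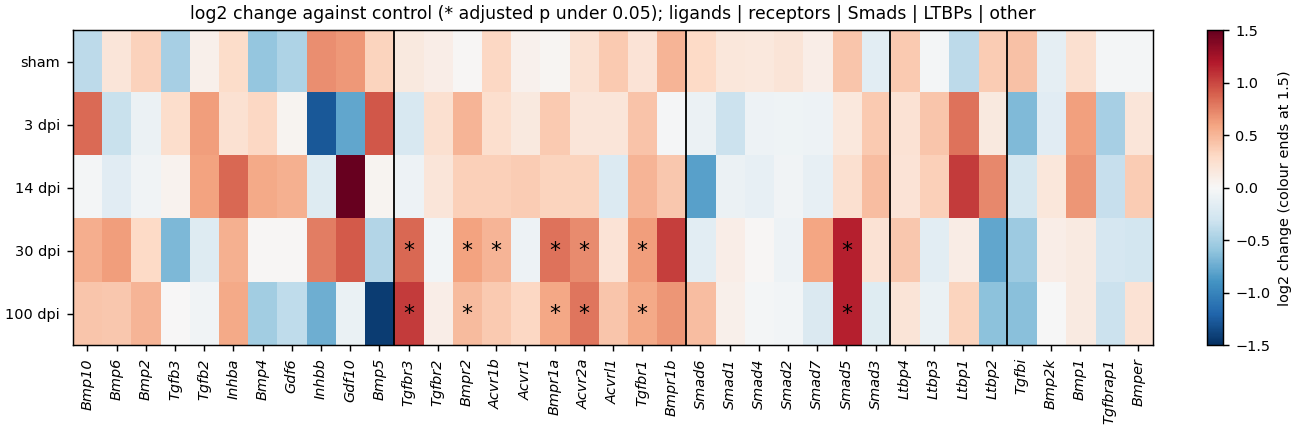
log2 change against control of the 37 tested members at sham, 3, 14, 30 and 100 dpi, by role, with red for higher and blue for lower; asterisks mark adjusted p under 0.05 in limma. Asterisks stand in the 30 and 100 dpi lines alone, on 7 and 6 members, and all but Smad5 are receptors.

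At 30 dpi 6 of the 10 tested receptors rose against controls. In that comparison 7 of 37 members (18.9%) were called, all higher, where 11.3% of all tested genes were called and 7.37% were called higher. They were the receptors Tgfbr3, Bmpr1a, Acvr2a, Bmpr2, Tgfbr1 and Acvr1b, and Smad5. At 100 dpi 6 members were called, all higher (12% of all genes called, 7.56% higher), the same without Acvr1b. The median log2 change of the tested receptors was 0.62 at 30 dpi and 0.52 at 100 dpi, against -0.03 and -0.02 for all genes. Against sham animals the receptor median was 0.45 at 30 dpi and 0.30 at 100 dpi. No ligand, latent binding protein or other Smad was called by limma against controls at either time. In other settings at 30 dpi, Tgfb3 was called lower by DESeq2 (adjusted p = 0.0379), with the replicate block (limma adjusted p = 0.0396) and without control replicate 1 or 30 dpi replicate 2, and Smad7 and Bmp6 were called higher without control replicate 1 (limma adjusted p = 0.0497 and 0.0462). A fit of the 30 dpi and control libraries alone called 4 members, Smad5, Bmpr1a, Bmpr2 and Bmpr1b, and 4.1% of all genes.

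Tgfbr3, a co-receptor that presents TGF-beta2 and inhibin to the signalling receptors, had 4195, 3186 and 4049 normalized counts in the controls and 4485, 4166 and 3897 in the sham animals. It had 3497, 3283 and 2848 at 3 dpi and 3675, 3843 and 3279.9 at 14 dpi. It reached 8748, 5583 and 6610.4 at 30 dpi and 9263, 7841 and 6614 at 100 dpi. Every late animal lay above every animal of the other 4 groups. For late animals against those at 3 and 14 dpi alone, ranges did not overlap, in either direction, in 6.28% of all tested genes. The share in which late animals lay above all 4 other groups was not counted. The level was 1.81-fold the control level at 30 dpi (log2 change 0.86 ± 0.162 SE, limma adjusted p = 0.00333) and 2.07-fold at 100 dpi (log2 change 1.05 ± 0.162 SE, limma adjusted p = 0.000820). By FPKM it was the highest receptor at both late times, at 49.4 ± 11.7 and 57.7 ± 8.97 FPKM (SD, n = 3).

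Bmpr1a, also known as ALK3, is the type I receptor used by Bmp2 and Bmp4. Its normalized counts were 1033, 995 and 1125 in controls, 1088, 981 and 1155 in sham animals and 1336, 1322 and 1475 at 3 dpi. At 14 dpi they were 1235, 1351 and 1372, at 30 dpi 1974, 1799 and 1752 and at 100 dpi 1692, 1474 and 1535. The 3 animals of each injured group lay above all 6 uninjured ones, with 30 dpi the highest group. The share of all tested genes that did so was not counted. The rise over controls was 1.75-fold at 30 dpi (log2 change 0.81 ± 0.0950 SE, limma adjusted p = 8.77e-05) and 1.49-fold at 100 dpi (log2 change 0.58 ± 0.0950 SE, limma adjusted p = 0.00135).

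Bmpr2, the type II receptor for BMPs, had 2803, 2467 and 2918 normalized counts in controls, 2849, 2701 and 2717 in sham animals and 3471, 3200.5 and 5204 at 3 dpi. At 14 dpi it had 3708, 3504 and 3253, at 30 dpi 4382, 4063 and 3991 and at 100 dpi 3859, 3698 and 3787. Every injured animal lay above every uninjured one, and replicate 3 at 3 dpi was the highest of all 18. How many of all tested genes separated injured from uninjured animals was not counted. Bmpr2 rose 1.52-fold at 30 dpi (log2 change 0.61 ± 0.137 SE, limma adjusted p = 0.0105) and 1.39-fold at 100 dpi (log2 change 0.47 ± 0.137 SE, limma adjusted p = 0.0361). The 30 dpi call was lost without control replicate 2 (limma adjusted p = 0.0527), and the 100 dpi call without any single one of its 6 libraries (up to 0.122).

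Acvr2a, a type II receptor shared by activins and BMPs, had 712, 632 and 508 normalized counts in controls and 731, 745 and 675 in sham animals. It had 744, 701 and 639 at 3 dpi and 724, 817 and 771 at 14 dpi. Later it had 974, 948 and 1079 at 30 dpi and 1280.0, 1015 and 944 at 100 dpi. The 6 late animals lay above the other 12, a separation that was not counted over all tested genes. The change against controls was 1.63-fold at 30 dpi (log2 change 0.71 ± 0.133 SE, limma adjusted p = 0.00314) and 1.75-fold at 100 dpi (log2 change 0.81 ± 0.133 SE, limma adjusted p = 0.00131). Its relative Acvr2b was below the minimum for a test, at 5.03, 1.01 and 1.81 normalized counts in controls and 0 in all 3 animals at 3 dpi, and at 5.74, 6.59 and 8.0 at 30 dpi and 4.78, 9.82 and 14.5 at 100 dpi, amid floors of 1.45 to 3.95. With no minimum it was called higher late than early (limma adjusted p = 4.22e-05), at 100 dpi against controls (0.0343), at both late times against sham animals (0.0275 and 0.0102) and from 14 to 30 dpi (0.00669), where no library was above 14.5 normalized counts.

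Tgfbr1, or ALK5, is the type I receptor of TGF-beta. It had 204, 221 and 236 normalized counts in controls, 257, 264 and 239.9 in sham animals and 289, 223 and 403 at 3 dpi. It had 349, 323 and 271 at 14 dpi, 353, 332 and 338 at 30 dpi and 349.6, 305 and 327 at 100 dpi. From 14 dpi on, all injured animals exceeded the uninjured ones, and at 3 dpi the animals spread from the control range to the highest value of all. The separation from 14 dpi on was not counted over all tested genes. The gain over controls was 1.55-fold at 30 dpi (log2 change 0.63 ± 0.169 SE, limma adjusted p = 0.0257) and 1.48-fold at 100 dpi (log2 change 0.57 ± 0.169 SE, limma adjusted p = 0.0403). Both calls were close to the threshold: leaving out any library but control replicate 3 lost the first (limma adjusted p up to 0.0833), and leaving out any of the 6 lost the second (up to 0.126).

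Acvr1b, or ALK4, is the type I receptor of activin. It had 893, 1047 and 780.0 normalized counts in controls, 1062, 1119 and 1180.4 in sham animals and 1081, 1177 and 967 at 3 dpi. It had 1065, 1342 and 1076 at 14 dpi, 1233, 1329.8 and 1297 at 30 dpi and 1277, 1010.1 and 1284 at 100 dpi. The 30 dpi animals lay above all 6 uninjured animals, and the lowest 100 dpi animal lay within the control range. How many of all tested genes separated so at 30 dpi was not counted. Acvr1b was 1.43-fold higher than control at 30 dpi (log2 change 0.51 ± 0.131 SE, limma adjusted p = 0.0194). The call was lost without control replicate 1 or 3 or 30 dpi replicate 2 or 3 (limma adjusted p up to 0.0882). At 100 dpi, where the main limma model did not call Acvr1b, DESeq2 called it higher than control (adjusted p = 0.0323, 17.9% of all genes). Limma with the FPKM table did so too (adjusted p = 0.0472, 13.6% of all genes). So did limma without control replicate 2 or 100 dpi replicate 2 (adjusted p = 0.0400 and 0.0359, 7.76% and 7.93% of all genes).

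**Figure D3:**
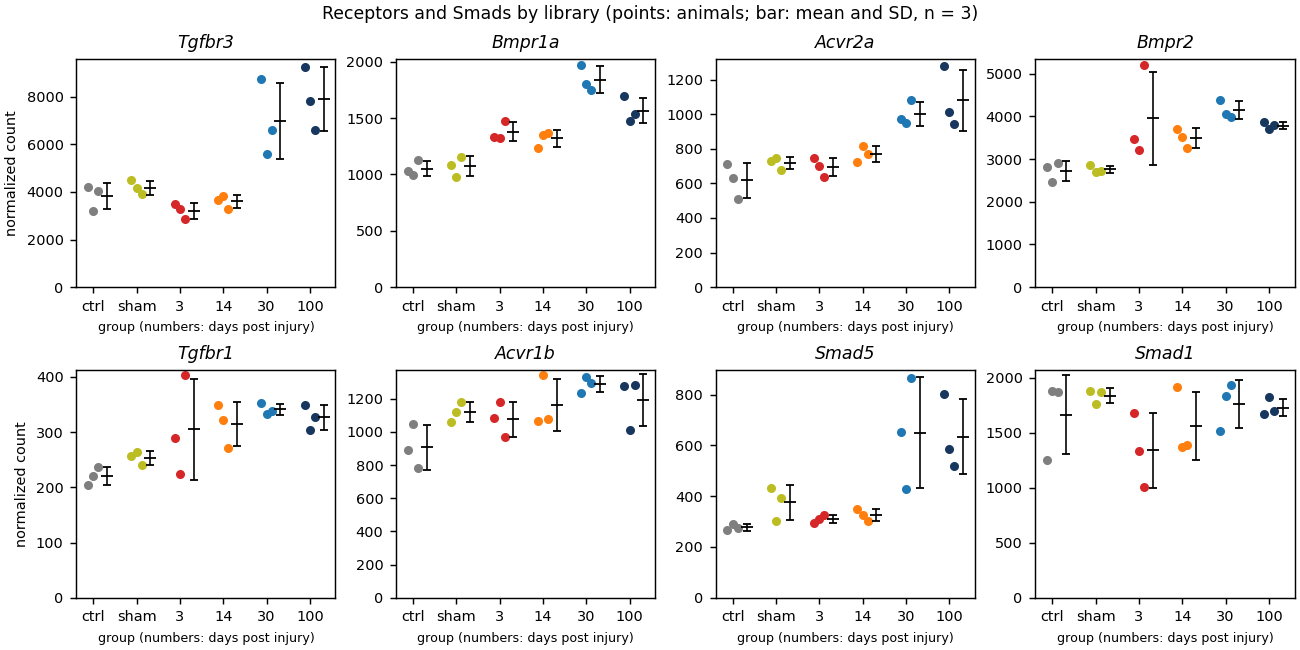
Normalized counts per library of 6 called receptors, Smad5 and Smad1 in the 6 groups, with the mean and SD of 3 animals beside the points; each axis starts at 0. Tgfbr3, Acvr2a and Smad5 were higher at 30 and 100 dpi than at 3 and 14 dpi in every animal, whereas Smad1 showed no such separation.

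The 4 tested receptors that were not called gave a range of changes. Bmpr1b was 2.05-fold the control level at 30 dpi (log2 change 1.04 ± 0.383 SE, limma adjusted p = 0.0919), from 78.5, 70.9 and 58.8 normalized counts in controls to 139, 153 and 136. Acvrl1 at 100 dpi was 1.33-fold the control level (log2 change 0.41 ± 0.168 SE, limma adjusted p = 0.119). Without 100 dpi replicate 3 it was called. For Tgfbr2 the 30 dpi change was log2 change -0.04 ± 0.178 SE, limma adjusted p = 0.906, and for Acvr1, known as ALK2, it was log2 change -0.07 ± 0.154 SE, limma adjusted p = 0.811. Among type II receptors the share of FPKM held by Tgfbr2 was 52.8% in controls and 42.1% at 30 dpi, while that of Acvr2a was 13.1% and 18.1%.

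Smad5, a receptor Smad of the BMP branch, was the only Smad that the limma model of all 18 libraries called against uninjured animals. In other settings Smad6 was called lower at 14 dpi, by DESeq2 as given above. Against sham animals a fit of the compared groups alone also called Smad6 lower (limma adjusted p = 0.0250, 0.425% of all genes). The normalized counts of Smad5 were 266, 291 and 275 in controls, 433, 301 and 391 in sham animals and 296, 309 and 326 at 3 dpi. At 14 dpi they were 351, 326 and 303, at 30 dpi 651, 429.7 and 867 and at 100 dpi 801, 584 and 518. All late animals lay above all controls and early animals, and the lowest at 30 dpi lay just below the highest sham animal. Over all tested genes, separation of late animals from both controls and early animals was not counted. Smad5 was 2.25-fold the control level at 30 dpi (log2 change 1.17 ± 0.213 SE, limma adjusted p = 0.00260) and 2.25-fold at 100 dpi (limma adjusted p = 0.00299). Both calls were made without each of their 6 libraries in turn.

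Smad1, which receives the same receptor signal as Smad5, ranged from 1003 to 1938 normalized counts over the 18 libraries. Its log2 change was 0.10 ± 0.188 (SE) at 30 dpi and 0.08 ± 0.188 at 100 dpi against controls. The FPKM ratio of Smad1 to Smad5 was 12.7 ± 1.75 (SD, n = 3) in controls, 10.7 ± 1.01 in sham animals, 8.98 ± 1.72 at 3 dpi and 9.80 ± 1.30 at 14 dpi. It was 6.12 ± 1.83 at 30 dpi and 5.29 ± 1.15 at 100 dpi. The late ranges, 4.71 to 8.19 and 3.96 to 6.04, lay below the control range of 10.7 to 14.0. No test was made of this ratio. Mean FPKM of Smad2, Smad3 and Smad4 across the groups spanned 12.2 to 14.6, 1.40 to 2.18 and 17.5 to 22.3.

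Against sham animals 5 members were higher at 30 dpi, Tgfbr3, Bmpr1a, Acvr2a, Bmpr2 and Smad5, where 7.25% of genes were called and 5.9% were higher. At 100 dpi 4 were higher, the same without Bmpr2 (7.14% of genes called, 5.54% higher). Bmpr1a was 1.71-fold the sham level at 30 dpi (limma adjusted p = 0.000141) and Tgfbr3 1.88-fold at 100 dpi (limma adjusted p = 0.00301). The sham comparison gave smaller Smad5 changes than the control comparison, 1.68-fold at 30 dpi (log2 change 0.75 ± 0.213 SE, limma adjusted p = 0.0447) and 1.68-fold at 100 dpi (log2 change 0.75 ± 0.213 SE, limma adjusted p = 0.0446), and the difference between them was not tested beyond the sham-to-control comparison above. Without sham replicate 2 or 3, 2 members were called at 30 dpi (3.83% and 5.19% of all genes). Without sham replicate 3 or 100 dpi replicate 1, 2 were called at 100 dpi (5.12% and 4.16% of all genes). Acvr2a at 30 dpi was called in 0 of 6 fits without 1 library (limma adjusted p up to 0.133), and Smad5 in 2 of 6 at 30 dpi and 1 of 6 at 100 dpi. With the length trend removed, Bmpr1a alone was called at 30 dpi (log2 change 0.44, 3.58% of all genes). The others then had log2 changes of 0.54 for Smad5, 0.42 for Tgfbr3, 0.31 for Acvr2a and 0.21 for Bmpr2 (limma adjusted p = 0.181, 0.236, 0.196 and 0.525). At 100 dpi Tgfbr3 and Acvr2a were then called (5.8% of all genes), and Smad5 and Bmpr1a were not (log2 changes 0.60 and 0.32, limma adjusted p up to 0.106). The comparisons with sham and with control animals use the same injured animals.

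Transcript length moved with these receptor results. The length measure was the normalized count over FPKM. In each library, the deviation of a gene's log2 level from its mean over the 18 libraries was fitted on log2 length. The slope per doubling of length was -0.0894 to -0.0466 in controls, 0.0215 to 0.187 at 30 dpi and 0.0109 to 0.0675 at 100 dpi. With the tested genes sorted by length into 3 equal classes, 7 of the 10 tested receptors lay in the longest class, including Bmpr2, Bmpr1a and Tgfbr3. In that class 16.3% of genes were called higher at 30 dpi and 16.5% at 100 dpi, against 1.94% and 2.03% in the shortest class. With the length trend removed from each library, 4 of the 7 members called at 30 dpi were called, where 5.23% of all genes were. They were Smad5, Bmpr1a, Acvr2a and Tgfbr1. The others then had log2 changes of 0.39 for Acvr1b, 0.53 for Tgfbr3 and 0.21 for Bmpr2 (limma adjusted p = 0.0854, 0.0991 and 0.501). At 100 dpi 4 of the 6 were called, where 9.92% of all genes were. They were Smad5, Tgfbr3, Acvr2a and Tgfbr1, and Bmpr1a and Bmpr2 were not called (limma adjusted p = 0.0774 and 0.436). Over all genes, removal of the trend turned 747 higher and 440 lower calls at 100 dpi into 489 and 492. For single genes, values with the trend removed are given for members only, not for the marker and pathway lists below.

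**Figure D4:**
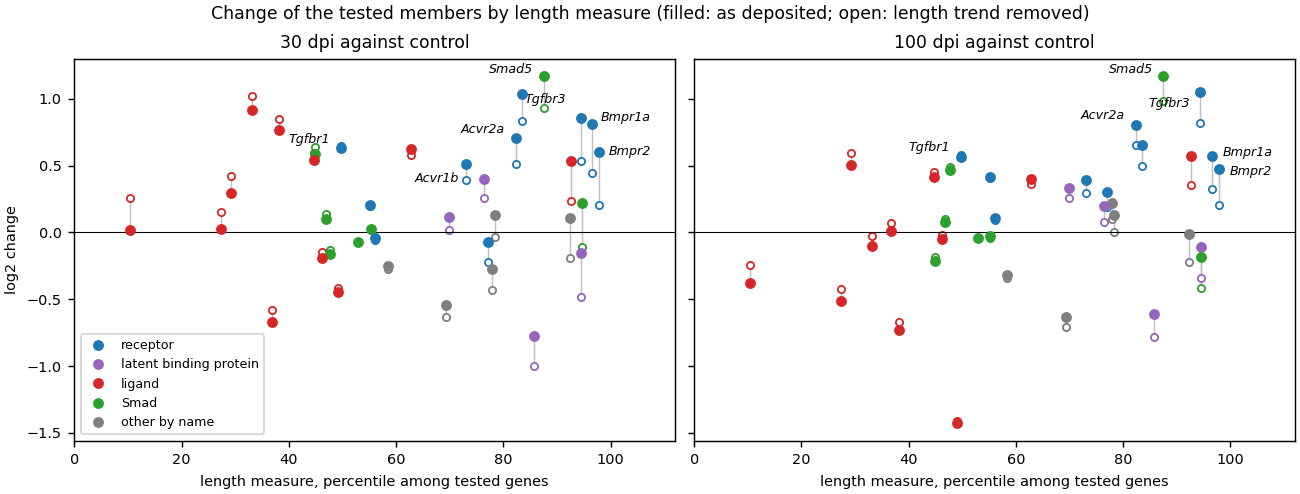
log2 change against control at 30 dpi (left) and 100 dpi (right) of the 37 tested members by percentile of the length measure among tested genes; filled points are the deposited values and open points the values with the length trend removed. Called members are named; most lie right of the 70th percentile with the open point below the filled one, and Tgfbr1 near the middle barely moves.

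Some markers of endothelium were also higher in late animals. Of 9 listed markers, 7 were measured and none of these was at 0 in a whole group. Their summed FPKM was 51.9 to 69.0 in controls, 53.0 to 69.1 in sham animals, 70.2 to 99.3 at 3 dpi, 57.8 to 75.5 at 14 dpi, 78.5 to 82.9 at 30 dpi and 99.9 to 116 at 100 dpi. Cdh5, the endothelial cadherin, had 187 ± 41.9 normalized counts in controls and 1049 ± 172 (SD, n = 3) at 100 dpi, 5.63-fold higher (log2 change 2.49 ± 0.257 SE, limma adjusted p = 3.02e-05). Of the 7, Cdh5 was the only one called against controls at 30 dpi, at a list median of 0.26 on the log2 scale, and at 100 dpi Cdh5, Flt1 and Npr3 were called, all higher, at a median of 0.92. Between the stages Cdh5 and Kdr were higher late and Vwf lower (log2 change -1.99 ± 0.516 SE, limma adjusted p = 0.0161). Fibroblast markers, 6 of 8 measured, summed to 123 to 181 FPKM in controls, 99.2 to 273 at 30 dpi and 124 to 165 at 100 dpi. The part of either list in the receptor results was not tested.

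Late animals were then set against early ones, 30 and 100 dpi together against 3 and 14 dpi together, which asks whether the families differ between the stages after injury. In this comparison 10 members were called, 6 higher and 4 lower late, where 16.7% of all genes were called, 9.36% higher and 7.37% lower. Higher late were the receptors Tgfbr3, Bmpr1a and Acvr2a, with Smad5, Smad6 and the ligand Bmp6. Lower late, and so higher early, were the ligands Tgfb2 and Tgfb3 and the latent binding proteins Ltbp2 and Ltbp3. In other settings Smad3 was called lower late by DESeq2 (adjusted p = 0.0462). With the length trend removed limma called it too (log2 change -0.62, adjusted p = 0.0075). Bmp4 was called lower late by DESeq2, with the FPKM table and with the replicate block. Bmp2 was called higher late by edgeR, DESeq2, with TMM factors and with the length trend removed. These settings called 14.1% to 21.2% of all genes.

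Tgfb2, a ligand known for its role in the endocardial cushions, had 166, 205 and 162 normalized counts in controls and 177, 182 and 200.2 in sham animals. It had 296, 211 and 324 at 3 dpi and 237, 311 and 266 at 14 dpi. It then had 116, 157 and 204 at 30 dpi and 140.4, 230.4 and 153 at 100 dpi. The early animals lay above all 6 uninjured ones, a separation that was not counted over all tested genes. The late animals spread from below to above the uninjured range, with 1 of them, at 100 dpi, above the lowest early animal. Early levels were 1.67-fold the late ones (log2 change -0.74 ± 0.161 SE, limma adjusted p = 0.00602), and the FPKM table did not give this call (limma adjusted p = 0.0816).

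Tgfb3 had 364, 632 and 423 normalized counts in controls, 305, 339 and 331 in sham animals and 508, 589 and 561 at 3 dpi. It had 413, 491 and 543 at 14 dpi, 216, 397 and 282 at 30 dpi and 423, 401 and 588 at 100 dpi. The 30 dpi animals were the lowest injured group, and the 100 dpi animals overlapped the early ones. Early levels were 1.40-fold the late ones (log2 change -0.49 ± 0.158 SE, limma adjusted p = 0.0450). Leaving out 1 of the 12 animals kept this call in 3 of 12 fits, those without 14 dpi replicate 1, 30 dpi replicate 2 or 100 dpi replicate 3, and 5 of the 10 other settings kept it.

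The latent binding protein Ltbp3, which is secreted in a complex with TGF-beta, separated the stages fully. Its normalized counts were 4727, 5572 and 6477 at 3 dpi and 5362, 5332 and 5334 at 14 dpi. They were 3005, 4039.6 and 4328 at 30 dpi and 3693, 4315 and 3641 at 100 dpi, with 3478, 5153 and 4030.4 in controls and 4354, 3746 and 4120.2 in sham animals. Every early animal lay above every late one, and 6.28% of all tested genes had early and late ranges that did not overlap. Early levels were 1.43-fold the late ones (log2 change -0.52 ± 0.111 SE, limma adjusted p = 0.00563).

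Ltbp2, a matrix protein of elastic fibres that in mammals does not bind TGF-beta itself, had 659, 639 and 526 normalized counts in controls, 765, 611 and 1048 in sham animals and 476, 642 and 986 at 3 dpi. It had 1930.1, 718 and 709 at 14 dpi, 287, 725 and 210.4 at 30 dpi and 283, 433 and 504 at 100 dpi. A 14 dpi animal stood far above the rest, and 5 of the 6 late animals lay below all controls. Early levels were 2.18-fold the late ones (log2 change -1.13 ± 0.310 SE, limma adjusted p = 0.0218). The call was lost without 3 dpi replicate 3, 14 dpi replicate 1, 30 dpi replicate 3 or 100 dpi replicate 1 (limma adjusted p up to 0.0605).

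Ltbp1 was not called by limma between the stages, with 2269, 1484 and 917 normalized counts at 14 dpi, 665, 886 and 587 in controls and 1184, 854 and 689 at 100 dpi (log2 change -0.70 ± 0.263 SE, limma adjusted p = 0.0784). Ltbp4 gave log2 change 0.09 ± 0.156 SE, limma adjusted p = 0.733. DESeq2 called Ltbp1 lower late, as did limma without 3 dpi replicate 1 or 14 dpi replicate 3. Neither gene was called by limma against controls at any time.

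Bmp6 had 2641, 1437 and 1916 normalized counts in controls, 2268, 1891 and 2484 in sham animals and 1600.3, 1704 and 1342 at 3 dpi. It had 1842, 1595 and 1725 at 14 dpi, 4059, 2287 and 2893 at 30 dpi and 3020.3, 3035 and 1830.4 at 100 dpi. The early animals were low and alike, and of the late animals 5 lay above all early ones while 1, at 100 dpi, lay among them. Late levels were 1.70-fold the early ones (log2 change 0.77 ± 0.169 SE, limma adjusted p = 0.00635), a call made in each of the 10 other settings and without each of the 12 animals.

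Smad6, the inhibitor that acts mainly on the BMP branch, had 3617, 3557 and 1989 normalized counts in controls, 3409, 3434 and 4043 in sham animals and 2863, 2169.9 and 3421 at 3 dpi. It had 1487, 1675 and 1873 at 14 dpi, 3466, 2171 and 2418 at 30 dpi and 5687, 4054 and 2939 at 100 dpi. The 14 dpi animals were the 3 lowest of all 18. Late levels were 1.52-fold the early ones (log2 change 0.61 ± 0.184 SE, limma adjusted p = 0.0346). The FPKM table did not give this call, which was made in 4 of 12 fits without 1 animal and lost without 3 dpi replicate 1 or 2, 14 dpi replicate 1 or 2, 30 dpi replicate 1 or 3, or 100 dpi replicate 1 or 2. Smad7, which inhibits both branches, had 1139, 776 and 663 normalized counts at 30 dpi and 780.1, 617 and 357 in controls (log2 change 0.59 ± 0.245 SE, limma adjusted p = 0.131).

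**Figure D5:**
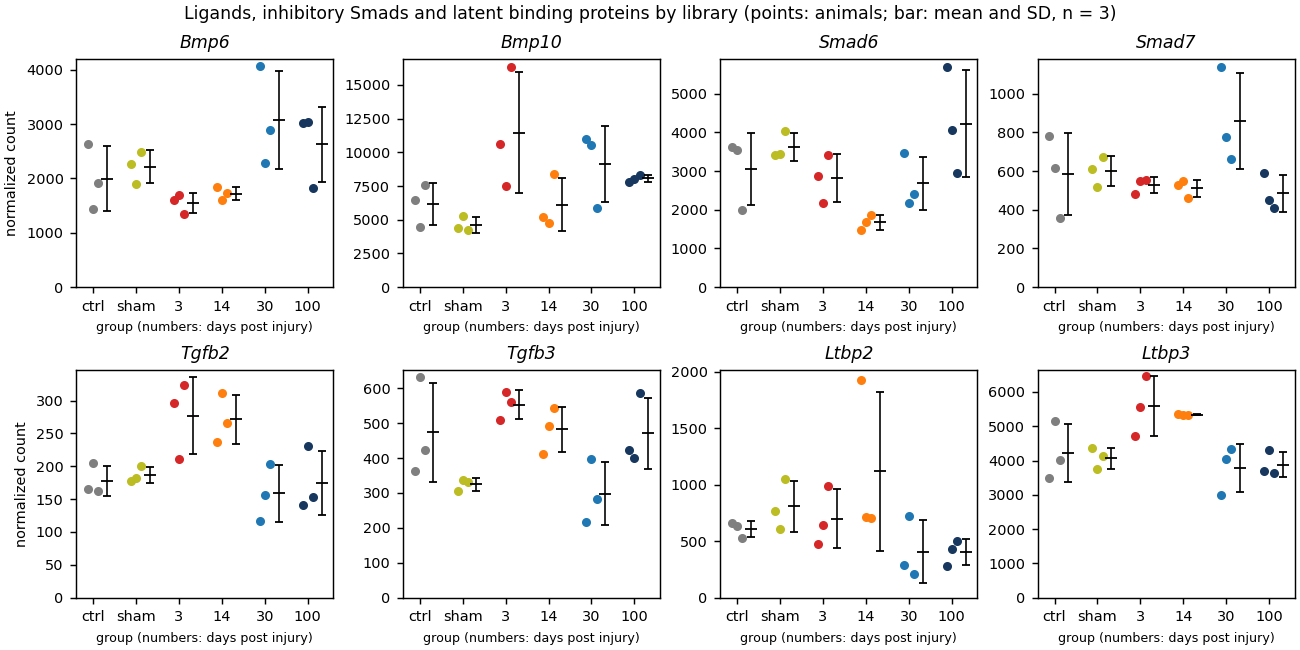
Normalized counts per library of Bmp6, Bmp10, Smad6, Smad7, Tgfb2, Tgfb3, Ltbp2 and Ltbp3 in the 6 groups, with the mean and SD of 3 animals beside the points; each axis starts at 0. Tgfb2 and Ltbp3 stand highest at 3 and 14 dpi, Smad6 is lowest at 14 dpi, and Bmp10 is highest and most spread at 3 dpi.

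Of the 10 tested receptors 3 rose between the stages, as did Smad5. Tgfbr3 was 2.16-fold higher late than early (log2 change 1.11 ± 0.115 SE, limma adjusted p = 2.58e-05), Smad5 1.96-fold (log2 change 0.97 ± 0.151 SE, limma adjusted p = 0.000638) and Acvr2a 1.41-fold (log2 change 0.50 ± 0.0938 SE, limma adjusted p = 0.00229). For these 3 the early and late ranges did not overlap, as was so for 6.28% of all tested genes. Bmpr1a was 1.26-fold higher (log2 change 0.33 ± 0.0672 SE, limma adjusted p = 0.00364), and with the length trend removed its change was 0.11 (limma adjusted p = 0.383). From 14 to 30 dpi 3 members rose, where 3.97% of genes were called and 2.42% were higher. They were Tgfbr3 at 1.91-fold (log2 change 0.93 ± 0.162 SE, limma adjusted p = 0.00602), Smad5 at 1.91-fold (log2 change 0.93 ± 0.213 SE, limma adjusted p = 0.0250) and Bmpr1a at 1.40-fold (log2 change 0.48 ± 0.0950 SE, limma adjusted p = 0.0124). With the length trend removed none of the 3 was called in that step (log2 changes of 0.72, 0.79 and 0.24, limma adjusted p = 0.0523, 0.0618 and 0.305), and without 14 dpi replicate 1 Tgfbr3 alone was called.

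Markers of 2 other cell types were high in the early animals. Fibroblast markers, 6 of 8 measured, summed to 188 to 299 FPKM at 3 dpi and 314 to 384 at 14 dpi, against 99.2 to 273 at 30 dpi and 124 to 165 at 100 dpi. Epicardial markers, 5 of 8 measured, summed to 20.9 to 128 FPKM at 3 dpi and 13.8 to 51.3 at 14 dpi, against 7.39 to 10.1 at 30 dpi and 4.77 to 8.70 at 100 dpi, with Upk1b, 1 of the 5, at 0 in all animals of each injured group. All 4 tested epicardial markers were called lower late. The part of these lists in the changes of Tgfb2, Tgfb3, Ltbp2 and Ltbp3 was not tested.

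Genes that act around the families were then counted from lists of the pathway. Of 34 extracellular antagonists and co-receptors 19 were tested, and between the stages 2 were higher late and 4 lower, where 9.36% of all genes were higher and 7.37% lower. Fstl1, a secreted follistatin-like protein that the epicardium of mice and fish makes, had 5658 ± 435 normalized counts at 14 dpi and 2884 ± 323 in controls (SD, n = 3), a 1.97-fold rise (log2 change 0.97 ± 0.164 SE, limma adjusted p = 0.0114). The BMP-binding membrane protein Crim1 was 1.97-fold higher than control at 30 dpi (log2 change 0.98 ± 0.174 SE, limma adjusted p = 0.00216). Cd109, a TGF-beta co-receptor that dampens the signal in mammals, had 3.67 ± 2.39 normalized counts in controls, near the floor, and 46.2 ± 26.0 at 30 dpi (log2 change 3.31 ± 0.769 SE, limma adjusted p = 0.0120). Htra3, a secreted protease, was 2.76-fold higher early than late (log2 change -1.46 ± 0.309 SE, limma adjusted p = 0.00487).

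Of 20 genes listed for the storage and activation of latent TGF-beta 15 were tested, and 4 were higher than control at 14 dpi. The list median was 0.90 on the log2 scale against 0.00 for all genes, of which 0.718% were called higher. The 4 were the integrin subunit Itgav, the matricellular protein Thbs1, the microfibril protein Fbn1 and the gelatinase Mmp2. Itgav, which binds the latency peptide, had 414 ± 118 normalized counts in controls, 1095 ± 105 at 14 dpi, 1464 ± 197 at 30 dpi and 1169 ± 304 at 100 dpi (SD, n = 3). It was the only one of the list called against controls at 30 dpi (3.61-fold, log2 change 1.85 ± 0.231 SE, limma adjusted p = 0.000153) and at 100 dpi (2.84-fold, log2 change 1.51 ± 0.231 SE, limma adjusted p = 0.000794). Thbs1 was 1.94-fold higher than control at 14 dpi (log2 change 0.96 ± 0.213 SE, limma adjusted p = 0.0477), Fbn1 2.54-fold (log2 change 1.35 ± 0.295 SE, limma adjusted p = 0.0448) and Mmp2 2.57-fold (log2 change 1.36 ± 0.248 SE, limma adjusted p = 0.0192).

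Inside the cell, 24 regulators of Smads were tested, and 7 were higher than control at 30 dpi, where 7.37% of all genes were. At 100 dpi 9 were higher and 2 lower, where 7.56% of all genes were higher and 4.45% lower. In the longest class of genes 16.3% were called higher at 30 dpi and 16.5% at 100 dpi. How many of the regulators fall in that class was not counted. The list median was 0.13 at 30 dpi and 0.11 at 100 dpi. Zfyve9, known as SARA and an anchor of Smad2 at the receptor, was 1.89-fold higher at 100 dpi (log2 change 0.92 ± 0.147 SE, limma adjusted p = 0.00106). The ubiquitin ligases Smurf2 and Trim33 were 1.67-fold (log2 change 0.74 ± 0.140 SE, limma adjusted p = 0.00379) and 1.61-fold higher (log2 change 0.69 ± 0.136 SE, limma adjusted p = 0.00494). Tab3, an adaptor of the TAK1 kinase, was 1.46-fold higher at 30 dpi (log2 change 0.55 ± 0.0973 SE, limma adjusted p = 0.00209).

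Genes known to be induced by each branch were counted last. Of 16 tested genes induced by TGF-beta, 2 were called higher at 14 dpi, Tnc and Col1a2, where 0.718% of all genes were, with a list median of 1.08 on the log2 scale. None was called at 30 dpi. Between the stages 9 of the 16 were lower late while 1, Skil, was higher, where 7.37% of all genes were lower and 9.36% higher, at a median of -0.86 against -0.01 for all genes. Tenascin C (Tnc) had 133 ± 56.1 normalized counts in controls, 624 ± 120 at 14 dpi and 43.7 ± 24.8 at 100 dpi (SD, n = 3). It was 4.88-fold higher than control at 14 dpi (log2 change 2.29 ± 0.392 SE, limma adjusted p = 0.0132). Between the stages, the actin-binding protein Tagln was 24.7-fold higher early (log2 change -4.63 ± 0.591 SE, limma adjusted p = 0.000139), the collagen chain Col1a2 2.70-fold (log2 change -1.43 ± 0.217 SE, limma adjusted p = 0.000529) and the collagen cross-linking enzyme Lox 1.97-fold (log2 change -0.98 ± 0.257 SE, limma adjusted p = 0.0170). Col1a2 is also on the fibroblast list and Tagln on the smooth muscle list.

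Of 8 tested genes induced by BMP signalling, 1 was called against controls, the homeobox gene Msx1, which was lower at 100 dpi with 3.39 ± 1.78 normalized counts against 58.7 ± 24.4 in controls (log2 change -3.74 ± 0.945 SE, limma adjusted p = 0.0185). A count of 1 in 8 is near the 12% of all genes called in that comparison. The direct BMP targets Id2 and Id3 were not called. Id3 had 2497 ± 472 normalized counts in controls and 3135 ± 874 at 30 dpi (log2 change 0.31 ± 0.199 SE, limma adjusted p = 0.348), and Id2 had 1748 ± 441 and 1689 ± 521 (log2 change -0.06 ± 0.272 SE, limma adjusted p = 0.916).

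Low ligands were close to the detection limit. Gdf11 had 0, 2.64 and 13.7 normalized counts at 30 dpi and 9.55, 0 and 1.45 at 100 dpi, so that single animals made the late level, and it was at 0 in 9 of the 18 libraries. Gdf2 had 3.06, 1.85 and 1.95 normalized counts at 3 dpi, where the floors were 3.06, 2.77 and 2.93, and 0 in each sham animal. It had 11 reads over all libraries. With no minimum on the level, Gdf2 was called higher at 3 dpi than in sham animals (limma adjusted p = 0.0353, 1.16% of all genes). It was also called lower late than early (limma adjusted p = 0.0225, 14.6% of all genes). Gdf10 had 64.6, 17.8 and 31.1 normalized counts at 14 dpi against 14.1, 8.10 and 9.05 in controls, with a log2 change of 1.62 ± 0.968 (SE) that limma did not call (adjusted p = 0.426). Bmp7 had 6.12, 11.1 and 8.79 at 3 dpi, its highest group, and 4.03, 4.05 and 1.81 in controls. Inhba, at 329 ± 91.3 normalized counts at 14 dpi and 186 ± 63.8 in controls (SD, n = 3), was not called by limma either (log2 change 0.86 ± 0.251 SE, limma adjusted p = 0.118).

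The other genes that match by name ranged widely in level. The matrix protein Tgfbi had 12526, 11189 and 9130.5 normalized counts in controls and 6776, 4603 and 11051 at 100 dpi, ranges that overlapped. Bmp1, the protease that trims procollagen, had 612, 469.9 and 560.1 in controls and 1161, 719 and 761 at 14 dpi (log2 change 0.66 ± 0.245 SE, limma adjusted p = 0.199). Its 14 dpi animals all lay above the controls, without a call. Between the stages limma on the deposited values did not call Bmp1. It was called lower late by edgeR (log2 change -0.56, adjusted p = 0.0415, 16.9% of all genes) and DESeq2 (adjusted p = 0.0173, 21.2%). Limma with the length trend removed also called it lower late (adjusted p = 0.0321, 14.1%).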

How the data were processed

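Poly-A RNA of ventricle from 18 geckos, 3 in each of 6 groups as the labels give them, had been sequenced on separate libraries. HISAT2 2.2.0, StringTie 2.2.1 and Salmon 1.8.0 are named in the submitters' processing notes, and the series text states alignment to a leopard gecko genome, assembly of transcripts and naming from mouse genes. The tables deposited by the authors were used: FPKM values, and normalized counts, a signal in reads whose scaling is not given in the sources used here. Every value in the normalized table was a whole multiple of the worth of 1 read, within 0.1 of a read, in 100% of values, and whole reads were recovered by dividing by it. Up to a common factor, the scaling matched DESeq2's size factors of the recovered reads to within 1.97e-08 percent.

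Values of log2(normalized count + 1) of all 18 libraries entered 1 limma-trend model (limma 3.58.1 in R, two-sided, residual df 12 and prior df 3.61) that had no replicate block. The test took 9887 genes whose mean normalized count was 10 or more, and 2489 were left out, of which 444 were at 0 throughout. Benjamini-Hochberg adjustment ran over all tested genes within each of 12 comparisons. With 3 animals a group the smallest p of an exact permutation test is 0.1, so the model carries the calls. Levels were compared between genes in FPKM alone. Settings tried were pseudocounts of 0.1 and 10, no filter, TMM factors, the FPKM table (pseudocount 0.1, mean of at least 0.5 FPKM), only the groups compared, a replicate block, edgeR 4.0.16 and DESeq2 1.42.0 on the recovered reads, removal of each library's length trend, and each library left out. The scripts were tested on simulated data. Library pairs within a group had a chi-square over degrees of freedom of 23.7 to 89.0, so none was a copy. The floor of 3 reads covers counting error only.

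The members and the gene lists were chosen with earlier results of these data known. Members called in any comparison are given in full. Of the other main ligands, receptors and Smads, some are given by group values or ranges. The rest are given by a control level, a share or a single change. Of each pathway list at most 4 called genes are given, by smallest F p. Cell type lists whose calls are not given above were those for cardiomyocytes, ventricle, atrium, leukocytes, smooth muscle and red cells. Of 8 tested cardiomyocyte markers, Ttn alone was called. It was higher at 30 and 100 dpi than in controls and sham animals, at 30 than at 14 dpi, and late than early. Of 2 tested ventricular markers 0 were called. The lists for atrium, leukocytes, smooth muscle and red cells had 3 of 4, 4 of 10, 6 of 8 and 4 of 6 markers measured. Of these markers, 1, 0, 3 and 1 were called lower late than early, with none higher. In other comparisons, the leukocyte marker Ptprc was called lower at 30 dpi than in controls and at 14 dpi. Cnn1 was lower than in controls at 3, 30 and 100 dpi. Tagln was higher than in sham animals at 3 and 14 dpi and lower at 30 than at 14 dpi. Myh11 was higher than in sham animals at 3 dpi. Itga2b was lower at 30 dpi than in controls, Hba-a1 lower at 30 than at 14 dpi, and Nr2f1 lower at 100 dpi than in sham animals. Of 5 other listed ligands and receptors of the superfamily 1 was measured and 0 were tested. No sequence is printed.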

Additional observations from a re-analysis of the deposited data

Results flagged for a closer look

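The following members differed between stages of injury, as tested by the difference itself in limma. From 14 to 30 dpi, the log2 change was 0.93 for Smad5, 0.48 for Bmpr1a and 0.93 for Tgfbr3. Late (30 and 100 dpi) against early (3 and 14 dpi), it was 0.97 for Smad5, 0.33 for Bmpr1a, 1.11 for Tgfbr3, 0.61 for Smad6, 0.77 for Bmp6 and 0.50 for Acvr2a. In the same comparison it was -1.13 for Ltbp2, -0.49 for Tgfb3, -0.52 for Ltbp3 and -0.74 for Tgfb2.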

How the results depend on the processing

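No member that was called reversed its direction under any setting tried. DESeq2 called 3 members at 3 dpi and 3 at 14 dpi against controls, 5 and 3 against sham animals, 9 between 30 and 14 dpi (7.82% of all genes), and 21 in the test over all groups (33.5% of all genes). With only the groups compared, 4 members were called at 30 dpi against controls, 2 at 30 dpi and 1 at 14 dpi against sham animals, and 1 between 30 and 14 dpi, with 4.1%, 2.84%, 0.425% and 1.79% of all genes. With the length trend removed, 4 were called at 30 dpi against controls, 1 at 3 dpi, 1 at 30 dpi and 2 at 100 dpi against sham animals, and 1 between 30 and 14 dpi, which was Ltbp3, with 5.23%, 1.2%, 3.58%, 5.8% and 1.82% of all genes. At 3 dpi against sham animals 1 was called with no filter, Gdf2 (1.16% of all genes), and 1 with edgeR, Bmp10 (1.04%). With no filter Acvr2b was also called in 5 comparisons and in the test over all groups. Between the stages, removal of the length trend gave calls for Bmp1, Bmp2 and Smad3 that the deposited values did not give in limma. For all genes, removal of the length trend turned 548 higher and 158 lower calls (100 dpi against sham) into 340 and 233, and 239 and 154 (30 against 14 dpi) into 88 and 92, and TMM factors turned 22 and 11 (3 dpi against control) into 22 and 20. Leaving out each library in turn gave 0 to 1 called members at 3 dpi against controls, 5 to 8 at 30 dpi and 4 to 5 at 100 dpi. Of all genes 0.0101% to 0.88%, 5.99% to 14.3% and 5.95% to 8.15% were then called. Against sham animals it gave 0 to 2, 2 to 5 and 2 to 4 members. Of all genes 0.0202% to 1.23%, 3.83% to 9.16% and 3.52% to 5.12% were then called. Leaving out 1 library gave 1 to 5 members between 30 and 14 dpi, 7 to 12 between the stages and 5 to 9 over all groups. The shares of all genes were 1.44% to 4.88%, 11.5% to 17% and 11.4% to 19.8%. In the other comparisons it gave 0 members, with up to 0.607% of all genes. For single members, 512 recomputed tests stayed on the same side of the threshold and 108 lost the call.

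Replicate numbers did not pair the animals: over 45 pairs of libraries with the same number the median correlation of deviations was -0.0081, 5 pairs exceeded 0.1, and 4 of 18 libraries correlated best with their own number. With the replicate block 8 members were called at 30 dpi and 5 at 100 dpi against controls, and 5 and 4 against sham animals. The shares of all genes called were 9.58%, 10.3%, 6.13% and 6.04%. The block gave 3 members between 30 and 14 dpi, 11 between the stages and 9 over all groups, with 3.03%, 15.2% and 12.5% of all genes. Elsewhere it gave 0 members, with up to 0.536% of all genes. Depth limits the low ligands and Acvr2b most, and with 3 animals a group, calls near the threshold move with single libraries.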
